A study of Mus musculus with 16 samples.

Results

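Meningeal and perivascular fibroblasts are the matrix-producing cells of the coverings of the brain and of the sleeves around its larger vessels. They secrete fibrillar collagens and the small leucine-rich proteoglycans that bind them, they release insulin-like growth factor 2 and prostaglandin D2 synthase, and the leptomeningeal layers carry transporters for organic anions, amino acids and GABA. In dissociated hypothalamus they are found in small numbers among glia, vascular cells and neurons.

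The cells described here were chosen by a marker rule from 16 Drop-seq libraries of the mouse hypothalamus-preoptic area, 1 library per mouse. Drop-seq captures single cells in droplets and counts unique molecular identifiers (UMIs) at the 3′ end of transcripts. Of 55675 cells kept after filtering, 707 were fibroblasts (1.27%): each had a UMI of at least 3 of Dcn, Lum, Col1a1, Col1a2, Igf2, Col3a1, Igfbp2, Slc6a13 and Ogn, and of at most 1 of 11 genes of other cell types. The mice were female, on a mixed CD-1 and 129P2 background, and 8 to 10 weeks old at the start. All carried floxed Esr1 alleles (Esr1tm1Sakh). Esr1cKO mice also carried Tg(Nkx2-1-Cre)2Sand, a BAC transgene in which Nkx2-1 sequences drive Cre, and Cre-negative littermates are called wild-type. Mice received tamoxifen at 0.1 mg/kg or oil vehicle once a day for 28 days and were killed soon after the last dose. The groups held 3 wild-type oil, 5 wild-type tamoxifen, 4 Esr1cKO oil and 4 Esr1cKO tamoxifen libraries.

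The libraries held 2634253 to 8038158 UMIs and 1746 to 5568 kept cells. The 707 fibroblasts held 920320 UMIs, from 24648 to 120877 in a library, with a median of 854 UMIs and 581 genes per cell against a median of 675 UMIs in the other kept cells. Such depths leave most genes of a single cell at 0 or 1 UMI, so levels are given as counts scaled to a common total (CPM), from UMIs summed over the fibroblasts of a library, and shares of cells with a UMI depend on depth. Wild-type oil replicate 3 and Esr1cKO tamoxifen replicate 3 stood apart from the other libraries. They scored 56.9 and 54.3 on the first principal component of all kept cells, which held 53.5% of the variance, while the other 14 lay between -19.8 and -2.25. Their files also held no barcode with fewer than 100 genes, against 20 in the others. On the first component of the fibroblasts alone (12.1% of the variance) they scored -34.5 and -27.3, inside the range of the other libraries (-48.3 to 88.4). Single genes still set them apart: in fibroblasts Myo3a had 0 UMIs in both and 84 to 443 UMIs in each of the others. Of 700 distinct fibroblast barcodes 4 were found in more than 1 library, and 5 pairs of a fibroblast and another kept cell of its library had barcodes that differed at a single base. Scrublet, a doublet caller, marked 1 of the 707 cells.

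The genes of the rule are described first. Dcn, which encodes the proteoglycan decorin, had a UMI in 607 of the 707 cells (85.9%), and Col1a2, a chain of type I collagen, in 517 (73.1%). Igf2 was found in 393 cells, Igfbp2, which binds IGF proteins, in 330, and the proteoglycan genes Ogn and Lum in 312 and 262. Col3a1 was found in 299 cells, Col1a1 in 207 and Slc6a13, a GABA and taurine transporter, in 199. These genes chose the cells and the exclusion genes kept others out, so the levels of both are a description and no check of the label. The summed level of the 9 markers ran from 7088 to 20028 CPM across libraries. The 11 exclusion genes summed to 241 ± 169 CPM (SD, n = 16 libraries) against 3225 CPM in the other kept cells. Astrocytes should lack Dcn, and those compared held no cell that met the rule. Of these astrocytes 0.48% had a Dcn UMI, at a median depth of 524 UMIs against 854 in the fibroblasts. At the edge of the rule, 230 fibroblasts had exactly 3 markers and 4676 CPM of Dcn. The 362 cells with 2 markers, just outside, had 1513 CPM of Dcn and 1101 CPM of Acta2, a smooth muscle actin, against 334 CPM of Acta2 just inside. Among cells with at least 3 markers, 136 had 1 exclusion gene and were kept. The 91 with 2 exclusion genes were left out, and their median depth was 3877 UMIs.

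Genes outside the rule were also higher in the fibroblasts than in the other kept cells. Of 694 genes with at least 200 UMIs in the fibroblasts, the 25 with the largest CPM ratio to the other kept cells were ranked. The first was Slc22a6, the organic anion transporter OAT1, with 225 CPM against 0.838 CPM (268-fold). Inmt, a methyltransferase, followed at 165-fold and Fmod, a collagen-binding proteoglycan, at 146-fold. Matrix genes among the 25 included Itih2 (77.9-fold), Pcolce (59.5-fold), Efemp1 (56.0-fold), Bgn (27.7-fold) and Mgp (23.0-fold). Aldh1a2, a retinaldehyde dehydrogenase of the retinoid pathway, was at 64.6-fold. Transporters and channels included Slc47a1 (64.4-fold), the gap junction gene Gjb2 (51.0-fold) and the sulphate transporter gene Slc13a4 (24.99-fold). The gene with most UMIs was Ptgds, prostaglandin D2 synthase, with 37762 UMIs in 350 cells. All of these ratios follow from how the cells were chosen and carry no test. Some belong to a part of the fibroblasts only. Inmt had a UMI in 131 cells, with 304 of its 320 UMIs in cluster 1 of the clusters described below. Slc47a1 had a UMI in 75 cells, with 350 of its 353 UMIs in cluster 4.

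Mural cells were the nearest of 7 other cell types, each picked by its own markers, for many of these genes. Col1a2 was at 1374 ± 345 CPM in fibroblasts and 160 ± 58.0 CPM in mural cells (SD, n = 16 libraries each), and the lowest fibroblast library stood above the highest mural one. Igf2 was at 3161 ± 1498 CPM against 138 ± 80.2 CPM in mural cells, also without overlap. Ogn did overlap, at 878 ± 279 CPM against 217 ± 140 CPM. Mural cells held Ctgf, Crispld2, Bgn and Serping1 at levels close to those of the fibroblasts, with ratios to the mural level of 1.63, 1.90, 2.20 and 2.22, and the libraries overlapped for all 4. Oligodendrocytes came next for Ptgds, at 9206 ± 2218 CPM against 40745 ± 17122 CPM. For Lum the ratio to the next type was 236 and for Slc22a6 it was 407. Col1a2, Igf2, Ogn and Lum are rule genes, and the other types held no cell that met the rule. Gaps between the types in these genes follow from how the cells were chosen and carry no test. The heat map of 33 genes over 8 cell types shows these neighbours.

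**Figure D1:**
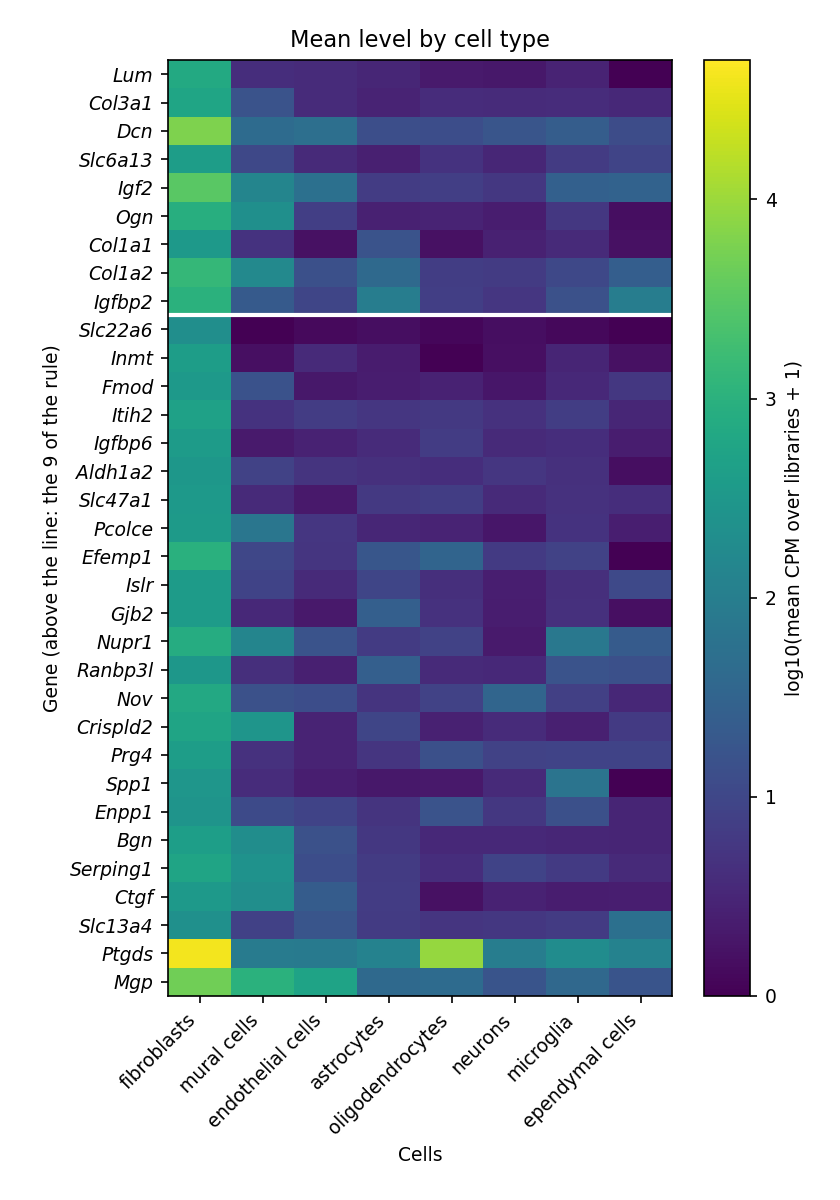
Mean level of the 9 genes of the rule (above the white line) and 24 of the leading genes (rows) in fibroblasts and 7 other cell types (columns), as log10 of the mean CPM over libraries plus 1. The fibroblast column is the brightest in every row, mural cells are next for Bgn, Ctgf and Serping1, and oligodendrocytes are next for Ptgds.

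Several of these genes are neighbours in the genome (GRCm38.p6, RefSeq positions). Of 192 genes with a position, at least 17 pairs that include a rule or leading gene lay within 200 kb. That count leaves out the leading genes Ctgf (10:24595442-24598683) and Enpp1 (10:24637914-24712159), which also lie within 200 kb. Dcn (10:97479500-97518163) and Lum (10:97565501-97572703) lie 47.3 kb apart. Kera, between Lum and Epyc in the same proteoglycan cluster, had 0 UMIs in the fibroblasts and Epyc had 3. Igfbp2 and Igfbp5 on chromosome 1 are 5.59 kb apart and had 942 and 1785 UMIs. The gap junction genes Gjb2 and Gjb6 are 18.6 kb apart with 375 and 464 UMIs, and Slc6a13 and Slc6a12 are 4.85 kb apart with 387 and 55 UMIs. Slc22a6 and Slc22a8, which encode organic anion transporters, are 6.16 kb apart on chromosome 19 and had 207 and 171 UMIs. H19, whose locus is imprinted together with Igf2, had 7 UMIs against 3054 of Igf2.

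The 250 bases before the start that the RefSeq promoter table gives for Slc22a6 and Slc22a8 are shown because both genes were highest in the same cluster of fibroblasts (655 and 621 CPM in cluster 5 of 6). Both are on the plus strand of GRCm38.p6. The window of Slc22a8 lies inside the span of that gene in RefSeq (chr19:8591254-8611835), so it precedes an internal start and not the first base of the gene. Capitals mark GTTAAT, the core letters of a homeodomain motif, searched on both strands after the sequences had been seen.

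Slc22a6, chr19:8617746-8617995: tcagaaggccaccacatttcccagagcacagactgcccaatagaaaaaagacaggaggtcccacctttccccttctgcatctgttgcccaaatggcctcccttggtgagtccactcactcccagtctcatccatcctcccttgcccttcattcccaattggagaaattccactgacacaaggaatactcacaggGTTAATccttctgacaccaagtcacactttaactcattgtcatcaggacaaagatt

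Slc22a8, chr19:8592932-8593181: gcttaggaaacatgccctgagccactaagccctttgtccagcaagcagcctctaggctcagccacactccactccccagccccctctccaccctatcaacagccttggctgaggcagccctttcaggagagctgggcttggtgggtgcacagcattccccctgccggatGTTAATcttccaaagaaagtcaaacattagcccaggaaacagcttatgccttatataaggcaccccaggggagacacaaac

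Each window held the letters once. They were found in 6.43% of all 32851 promoter windows of that length, and in those of 4 of the 24 rule and leading genes that the table holds (Slc6a13, Slc22a6, Ranbp3l and Spp1). A match describes the letters and is not a binding site.

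The fibroblasts were not uniform. Clustering of the 707 cells on 1000 variable genes gave 6 clusters, which are described by their leading genes only and carry no test. The partition was identical under 3 other random seeds, and the adjusted Rand index was 0.80 to 1 over 5 other resolutions and 0.77 to 0.87 with 10 or 30 neighbours in place of 20. Cluster genes were ranked by CPM ratio among those found in at least 20% of the cluster's cells, a rule set after the cells had been seen.

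Cluster 1 held 181 cells and was led by Inmt, at 2064 CPM against 20.7 CPM in the other fibroblasts. Cygb, which encodes cytoglobin, was at 1419 CPM and Gsn, an actin-severing protein gene, at 6369 CPM. Lum was at 2567 CPM against 300.1 CPM, and Dcn at 15536 CPM. These cells held little of the leptomeningeal set: Igf2 was at 109 CPM, Slc6a13 at 27.2 CPM and Ptgds at 794 CPM. Tcf21, a mesenchymal transcription factor gene, was at 258 CPM here and had no UMI in the other 5 clusters. Inmt was higher in cluster 1 than in the other fibroblasts in 13 of the 13 libraries with at least 3 cells of each.

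Cluster 2 (174 cells) was led by the laminin gene Lama1, the endothelin gene Edn3 and Col15a1. Edn3 was at 2246 CPM against 238 CPM in the other fibroblasts, and Apod, a lipid carrier gene, at 27842 CPM against 4806 CPM, each higher in 16 of 16 libraries. Col15a1 and Lama1, both of which encode basement membrane components, were at 687 and 663 CPM. The collagen list of 30 genes summed to 9616 CPM, the highest of the 6 clusters. Igf2 was high (6851 CPM), as was Ptn, pleiotrophin (7962 CPM).

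Clusters 3 and 5 shared the prostaglandin and transporter genes. Ptgds took 88576 CPM in cluster 3 (135 cells) and 160170 CPM in cluster 5 (85 cells), and both held Aldh1a2, Fmod, Slc22a6 and Slc6a20a at higher levels than the other 4. Slc13a3, a dicarboxylate transporter gene, was at 536 and 723 CPM, against 6.79 to 63.9 CPM in the other 4. Igf2 was at 6804 and 4439 CPM. They differed in immediate early genes: a list of 30 such genes summed to 26575 CPM in cluster 3 and 2180 CPM in cluster 5, with Fos at 5548 and 407 CPM. The Wnt ligand gene Wnt4 was at 404 and 373 CPM, and Ifitm1, an interferon-induced gene, at 773 and 361 CPM. Cluster 5 was led by Enpp2, a choroid plexus gene, at 2010 CPM against 78.1 CPM in the other fibroblasts. Enpp2 had 178 UMIs in only 19 of the 85 cells and was higher in 9 of 12 libraries. The cluster also held a cell with 3384 UMIs of the choroid plexus gene Ttr, out of 88537 UMIs in the cluster. Its choroid plexus list summed to 40627 CPM, most of it from that cell.

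Cluster 4 (85 cells) had few of the rule's genes. Nov, a CCN family matrix protein gene, was at 3124 CPM against 2.93 CPM in the other fibroblasts, and Prg4, which encodes lubricin, at 1762 CPM against 7.33 CPM. Slc4a10 and Slc47a1, a bicarbonate transporter gene and an organic cation extruder gene, were at 1800 and 1472 CPM. Rspo3, a Wnt agonist gene, was at 1526 CPM. Each of these 5 genes was higher than in the other fibroblasts in 12 of 12 libraries. The rule caught these cells narrowly, with a median of 3 of the 9 markers and a summed marker level of 3448 CPM against 5908 to 28345 CPM elsewhere. Dcn was at 723 CPM and Lum at 4.21 CPM, and Ogn (1001 CPM), Col1a2 (883 CPM) and Mgp (9520 CPM) were prominent. These cells had the highest median depth, at 2082 UMIs.

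Cluster 6 (47 cells) went against the label. Rgs5, a pericyte gene, was at 5429 CPM against 66.6 CPM in the other fibroblasts, and the endothelial genes Ly6c1 and Flt1 were at 2406 and 2810 CPM. Mural and endothelial lists summed to 11357 and 14178 CPM, against at most 3365 and 1711 CPM in any other cluster. Its rule markers summed to 5908 CPM, with Igf2 at 2278 CPM and a median of 3 markers, and its median depth was 1537 UMIs. These cells held transcripts of fibroblasts and of vessel cells together, so they are named only by Rgs5 and Ly6c1.

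**Figure D2:**
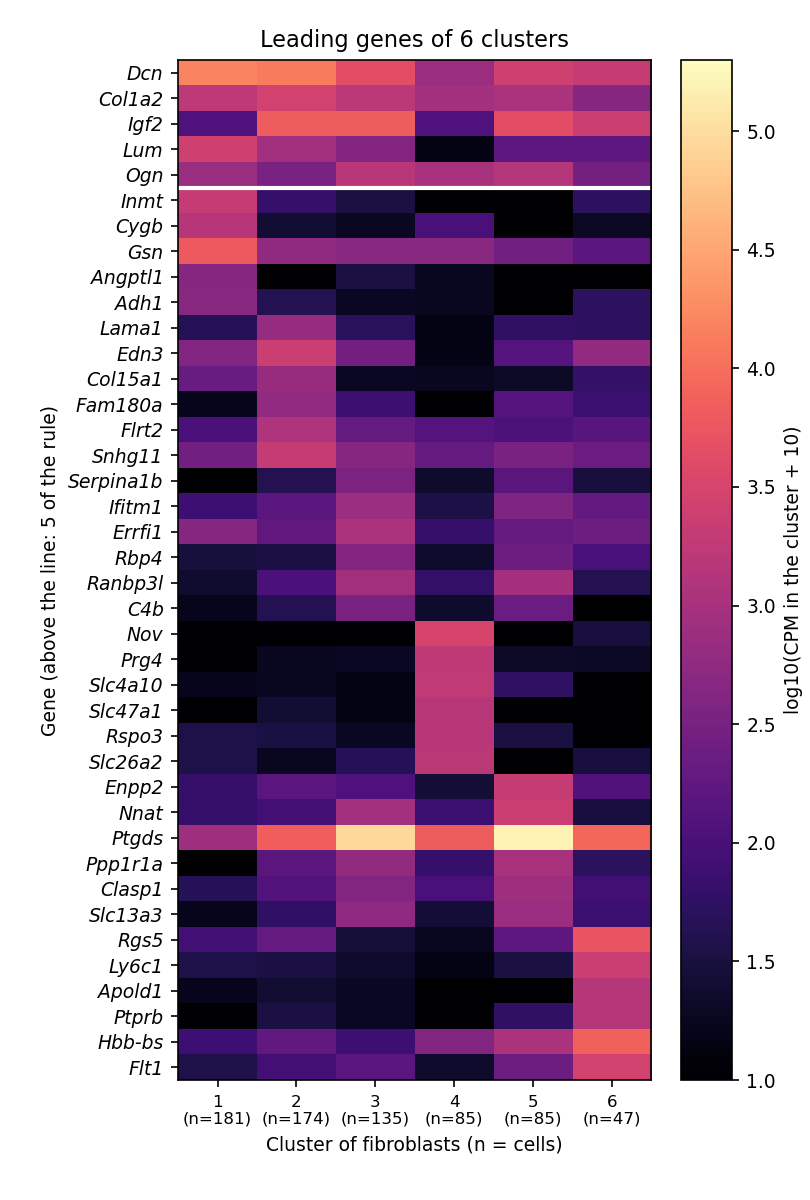
Level of 5 genes of the rule (above the white line) and of the leading genes of 6 clusters of fibroblasts (rows), as log10 of CPM in the cluster plus 10, with clusters and their cell numbers as columns. Dcn and Lum are low in cluster 4, where Nov, Prg4 and Slc47a1 are high, and Rgs5 and Ly6c1 are high in cluster 6 with 47 cells.

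Pairs of rule genes were also counted within single cells, from the same counts that gave the clusters, so this is no separate view of them. After 570 cells with at least 500 UMIs were thinned to 500 UMIs each, Lum was found in 38.5% of cells with Dcn and 4.46% of cells without. Slc6a13 was found in 28.9% of cells with Igf2 and 7.33% of cells without. Lum and Igf2 went the other way, with Igf2 in 28.9% of cells with Lum and 54.95% of cells without. Col1a1 and Col1a2, the chains of type I collagen, went together less: Col1a2 was found in 56.5% of cells with Col1a1 and 46.97% of cells without. The rule asks for several of these genes at once, so these shares describe the chosen cells only.

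Libraries differed widely in the mix of clusters. Cluster 1 made up 25 of 38 fibroblasts in Esr1cKO tamoxifen replicate 1, 22 of 35 in wild-type tamoxifen replicate 2 and 15 of 27 in wild-type oil replicate 1, but 0 of 16 in Esr1cKO tamoxifen replicate 2 and 1 of 51 in wild-type tamoxifen replicate 1. Cluster 3 made up 24 of those 51 cells. Cluster 6 held 6 of the 16 fibroblasts of Esr1cKO tamoxifen replicate 2 and none in 3 libraries. Clusters 2 and 3 had cells in all 16 libraries. High and low shares of cluster 1 occurred within each of the 4 groups. Lum and Inmt, both leading genes of cluster 1, differed between libraries. Lum was at 1512 CPM in Esr1cKO tamoxifen replicate 1 and at 242 to 354 CPM in the other 3 libraries of that group. Inmt was at 1989 CPM in the same library and at 0, 231 and 131 CPM in replicates 2, 3 and 4. Mgp, which was also high in cluster 1, was at 3580 CPM in that library, below its mean of 4727 CPM over all 16. In sums over the fibroblasts of a library, a larger share of a cluster and a higher level per cell cannot be told apart.

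**Figure D3:**
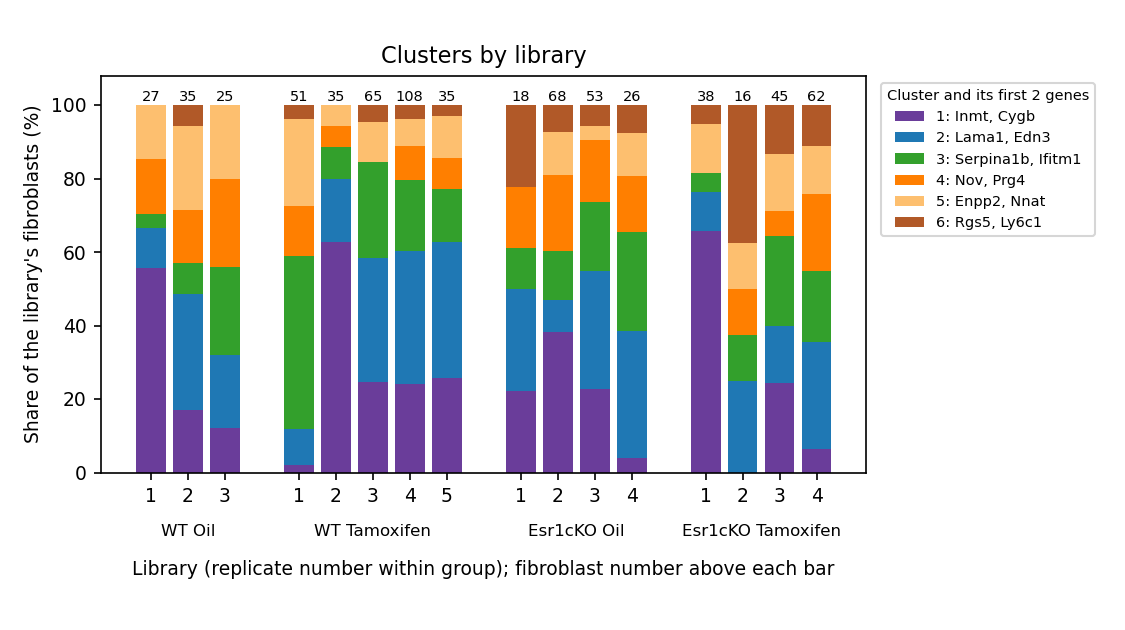
Share of each library's fibroblasts in 6 clusters (stacked bars, percent), with libraries ordered by group and the number of fibroblasts above each bar. Cluster 1 (Inmt) ranges from 0 of 16 to 25 of 38 cells within the Esr1cKO tamoxifen group alone.

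Transcripts of other cell types were measured in the same sums. Transthyretin (Ttr), the secretory product of choroid plexus epithelium, had 3397 UMIs in 12 fibroblasts, and 3384 of them came from 1 cell of wild-type tamoxifen replicate 2. There the choroid plexus list of 13 genes, with Ttr as its most abundant and Kcne2 at 0, summed to 94143 CPM, against 79.6 to 446 CPM in the other 15 libraries. Globin genes had 2098 UMIs, of which 1478 came from 1 cell of Esr1cKO tamoxifen replicate 2. The red cell list, led by Hbb-bs and with Alas2 at 0, summed to 60292 CPM in that library and to 62.4 to 3026 CPM in the others. The mural list (18 genes, all with UMIs, Vtn most abundant) ran from 570 to 5285 CPM. The endothelial list (16 genes, all with UMIs, Itm2a most abundant) ran from 721 to 5920 CPM, with its highest values, 5920 and 5131 CPM, in Esr1cKO tamoxifen replicates 2 and 3. The oligodendrocyte list (12 genes, led by Mbp) was at 4098 CPM in Esr1cKO oil replicate 1 and 1066 to 2434 CPM elsewhere. Microglial and ependymal lists were low, at 154 ± 71.5 and 107 ± 75.1 CPM (SD, n = 16). The astrocyte list (14 genes, all with UMIs) was at 4902 ± 1231 CPM, against 5816 CPM in the other kept cells. The neuronal list (12 genes, all with UMIs, led by Snhg11) was at 987 ± 224 CPM, against 7629 CPM in the other kept cells. The precursor list of 11 genes, led by Pdgfra with Neu4 at 0, was at 369 ± 107 CPM, and the pars tuberalis list of 6 genes had 21 UMIs in all.

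**Figure D4:**
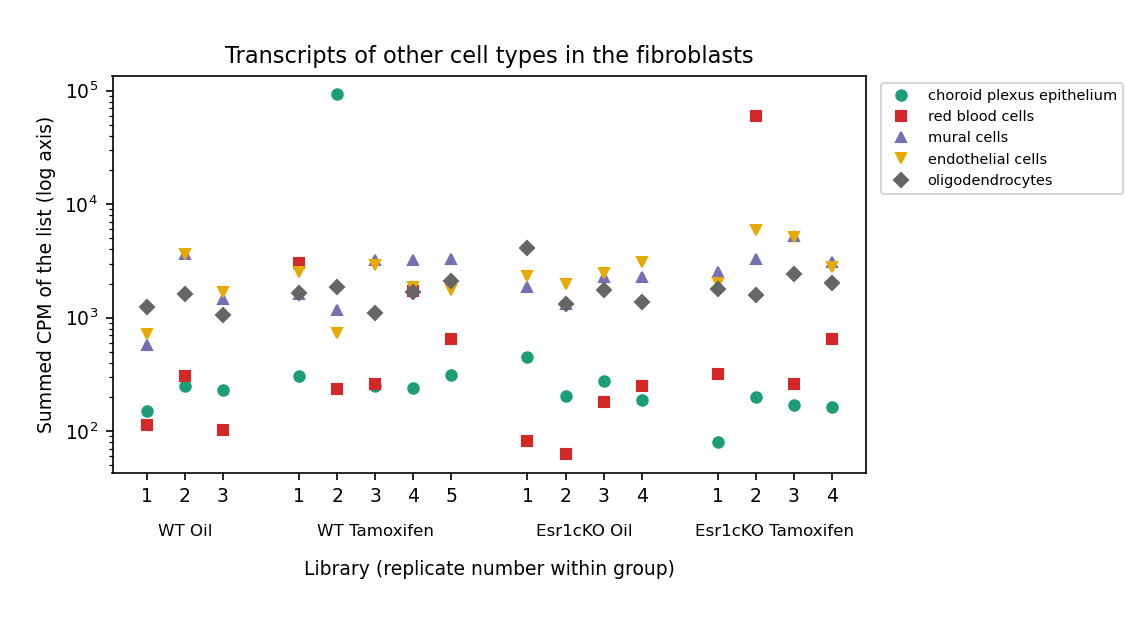
Summed CPM, on a log axis, of 5 marker lists of other cell types in the fibroblasts of each library (points), ordered by group. The choroid plexus list in wild-type tamoxifen replicate 2 (94143 CPM) and the red cell list in Esr1cKO tamoxifen replicate 2 (60292 CPM) stand far above all other libraries.

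The share of fibroblasts among kept cells was compared between groups over mice. It was 1.55%, 1.07% and 0.777% in wild-type oil replicates 1, 2 and 3. In wild-type tamoxifen replicates 1 to 5 it was 1.42%, 1.12%, 1.17%, 1.96% and 0.921%. Esr1cKO oil replicates 1 to 4 had 0.587%, 2.49%, 1.26% and 0.799%, and Esr1cKO tamoxifen replicates 1 to 4 had 1.38%, 0.847%, 1.09% and 1.61%. All 4 groups overlapped, and the lowest and the highest of the 16 values were both from Esr1cKO mice given oil. The exact Clopper-Pearson 95% intervals of these 2 libraries, 0.348% to 0.926% and 1.94% to 3.15%, did not meet. These libraries were picked as the extremes of the 16, so this is a description, and intervals cover counting error only.

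None of the 4 differences passed. Tamoxifen minus oil was 0.186 points in wild-type mice (1.32% ± 0.402, n = 5, against 1.13% ± 0.388, n = 3; exact permutation p = 0.571, adjusted p = 0.943). In Esr1cKO mice it was -0.0511 points (1.23% ± 0.333 against 1.28% ± 0.852, n = 4 each; exact permutation p = 0.943, adjusted p = 0.943). Esr1cKO minus wild-type was 0.151 points under oil (exact permutation p = 0.914) and -0.0855 points under tamoxifen (p = 0.746), both with an adjusted p of 0.943 over the 4 comparisons. The tests were two-sided. The smallest p they allow is 0.0357, 0.0286, 0.0571 and 0.0159 in that order, so the comparison under oil could not have reached 0.05. After adjustment over 4 comparisons, no single comparison could have passed alone, even at its smallest p. With wild-type oil replicate 3 and Esr1cKO tamoxifen replicate 3 left out, the 4 differences were 0.00791, -0.00484, -0.0265 and -0.0392 points.

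**Figure D5:**
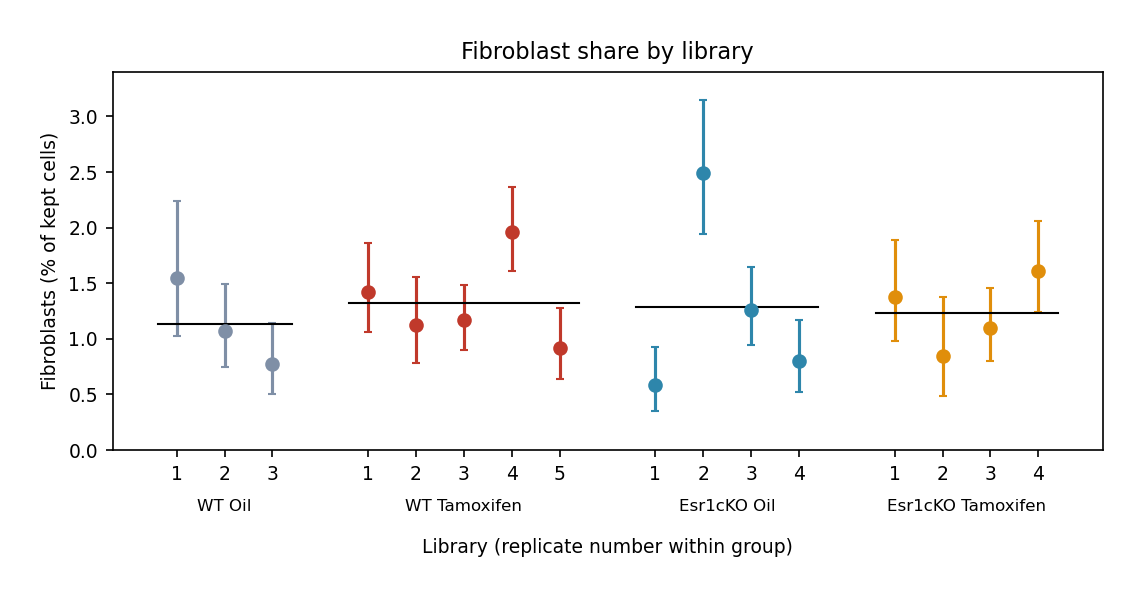
Fibroblasts as a percent of kept cells in each library (points, with exact 95% intervals for counting error) by group, with the group mean as a line. The 4 means lie between 1.13% and 1.32% while single libraries range from 0.587% to 2.49%.

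Gene levels were compared by summing UMIs over the fibroblasts of each library and fitting all 4 groups with edgeR's quasi-likelihood test, with Benjamini-Hochberg adjustment. Of 1335 genes that passed the filter on low counts, 0 reached an adjusted p under 0.05 in any of the 5 comparisons, so the called share was 0%. The smallest adjusted p-values were 0.9997 for tamoxifen in wild-type mice, 0.252 for tamoxifen in Esr1cKO mice, 0.998 for the interaction, 0.999 for genotype under oil and 0.224 for genotype under tamoxifen. DESeq2 called 0 genes in the first 4 comparisons and 1 gene, Ly6c1, in the last. Unadjusted edgeR p-values under 0.05 were found for 33 genes (2.47%), 35 genes (2.62%), 32 genes (2.4%), 45 genes (3.37%) and 47 genes (3.52%) in that order, fewer than the 5% that a threshold of 0.05 allows. The median standard error of a log2 change was 0.43, 0.41, 0.59, 0.45 and 0.38 in that order. In simulated counts with the same depths, the wild-type tamoxifen comparison recovered 82 of 100 genes changed 4-fold and 21 of 100 changed 2-fold. Cells are not replicates here, and n is the number of mice.

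In wild-type mice the smallest unadjusted p belonged to Rnase4, a secreted ribonuclease gene. It was at 261, 292 and 83.4 normalised CPM under oil and at 650, 822, 415, 529 and 648 under tamoxifen. The groups did not overlap, and the log2 change was 1.48 ± 0.39 (SE, adjusted p = 0.9997 by edgeR). Prnp, the prion protein gene, was next among the higher genes (log2 change 1.002 ± 0.35), and Hspa8, Tspan13 and Arhgap18 had log2 changes of -0.95, -1.48 and -1.44. None of these 5 genes passed after adjustment.

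In Esr1cKO mice the globin genes Hbb-bs, Hba-a2 and Hba-a1 had the smallest p, with log2 changes of 7.12, 6.37 and 6.12 and an adjusted p of 0.252 each by edgeR. Hbb-bs was at 0, 45.2, 165 and 115 normalised CPM under oil and at 272, 50789, 176 and 439 under tamoxifen. The second of these tamoxifen libraries is the one in which 1478 globin UMIs came from a single cell, and without it Hbb-bs and Hba-a1 had log2 changes of 1.77 and 1.56. When the 6 fibroblasts with at least 10 Ttr or globin UMIs were left out, 0 genes were called in each of the 5 comparisons and the globin genes no longer passed the filter. Ptrf, a caveolae gene also called Cavin1, was at 129, 362, 259 and 305 normalised CPM under oil and at 816, 938, 654 and 658 under tamoxifen, without overlap. Its log2 change was 1.38 ± 0.39 (adjusted p = 0.655 by edgeR). Klf6 followed with 1.03 ± 0.36. Esr1cKO tamoxifen replicates 2 and 3 also had the highest endothelial list, and with the Rgs5 and Ly6c1 cluster left out the log2 change of Ptrf was 1.28 ± 0.46 (adjusted p = 0.999 by edgeR).

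The interaction asks whether the tamoxifen effect differed between genotypes. Sar1a, Colec12, Cped1, Dis3l2 and Pim3 had the smallest p, from 0.00873 to 0.0147, with an adjusted p of 0.998 each by edgeR. Under oil, Rtn3, a reticulon gene, was at 65.3, 194 and 250.3 normalised CPM in wild-type and at 451, 482, 517 and 534 in Esr1cKO mice, without overlap (log2 difference 1.44 ± 0.40, adjusted p = 0.999 by edgeR). BC005537, Col23a1 and Ndufs7 followed with log2 differences of 1.32, 2.02 and -1.33.

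Under tamoxifen, Ly6c1, an endothelial gene, was at 544, 1371, 1534 and 658 normalised CPM in Esr1cKO mice and at 130, 51.4, 415, 181 and 259 in wild-type mice. The groups did not overlap (log2 difference 2.23 ± 0.48, adjusted p = 0.224 by edgeR, and adjusted p = 0.0352 by DESeq2). Ly6c1 was a leading gene of cluster 6, ranked after Rgs5. This cluster held 21 of 161 fibroblasts of the Esr1cKO tamoxifen group and 10 of 294 of the wild-type tamoxifen group. With cluster 6 left out, Ly6c1 no longer passed the filter on low counts and could not be tested. Colec12, a scavenger receptor gene of the collectin family, went the other way at 612, 289, 402 and 585 normalised CPM in Esr1cKO mice and 754, 1336, 1313, 1087 and 1770 in wild-type mice (log2 difference -1.36 ± 0.32, adjusted p = 0.272 by edgeR). Serping1, which encodes the C1 inhibitor, had a log2 difference of -0.92 ± 0.26, and Hbb-bs and Hba-a1 had 3.79 and 3.48. The direction of both globin values rested on Esr1cKO tamoxifen replicate 2, and without it they were -1.56 and -1.10.

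Gene lists of fibroblast biology gave no call in any comparison, and the medians of their log2 values are to be read beside those over all 1335 genes, which were 0.03, -0.02, -0.07, 0.04 and -0.03 on the log2 scale in the order above. Genes with an unadjusted p under 0.05 are to be read against the 2.4% to 3.52% of all genes that had one. All 9 rule markers passed the filter. They chose the cells in every library, so their values are a description. Their median log2 change under tamoxifen was 0.33 in wild-type and 0.01 in Esr1cKO mice. For genotype it was -0.32 under oil, with 2 of the 9 above 0, and -0.40 under tamoxifen, with 0 of the 9 above 0. For the interaction it was -0.28, also with 2 above 0. Of 30 collagens 9 were tested, 3 of them rule genes, and Col1a2, Col3a1, Col1a1 and Col25a1 had most UMIs. Outside the rule genes, Col8a1 (tamoxifen in Esr1cKO mice, -1.25 ± 0.55) and Col23a1 (genotype under oil) each had an unadjusted p under 0.05 in 1 comparison. The medians of the other 6 collagens were 0.41, -0.53, -0.77, 0.22 and -0.36. Of 12 leucine-rich proteoglycans 6 were tested, 3 of them rule genes, and none had an unadjusted p under 0.05. The other 3 had medians of 0.30, -0.0025, -0.48, 0.08 and -0.32. Dcn, which had most UMIs, was at 6265 ± 2697, 7922 ± 1863, 4739 ± 1922 and 5771 ± 3509 CPM in wild-type oil, wild-type tamoxifen, Esr1cKO oil and Esr1cKO tamoxifen libraries (SD, n = 3, 5, 4 and 4). Its ranges overlapped in all 4 groups.

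Of 14 IGF axis genes 7 were tested, 2 of them the rule genes Igf2 and Igfbp2. The medians of the other 5 were 0.12, 0.04, 0.04, -0.17 and -0.03 in the same order. Igf2 was at 3113, 3589 and 7362 CPM in wild-type oil libraries and at 2250, 1108, 4157, 4070 and 3087 CPM in wild-type tamoxifen libraries. Esr1cKO libraries had 974, 2619, 3091 and 3761 CPM under oil and 2586, 1611, 4052 and 3151 CPM under tamoxifen. All 4 groups overlapped, and the highest value was from wild-type oil replicate 3, a library that stood apart. Igfbp5 was the only gene of this list with an unadjusted p under 0.05 (wild-type tamoxifen, -0.75 ± 0.31). Of 30 meningeal transporters 19 were tested, 1 of them the rule gene Slc6a13, and the medians of the other 18 were -0.27, -0.52, -0.13, 0.07 and -0.12. Slc1a3, a glutamate transporter gene, had an unadjusted p under 0.05 in 3 comparisons, with log2 values of 1.10 ± 0.45 for tamoxifen in wild-type mice, -1.57 ± 0.63 for the interaction and -0.98 ± 0.40 for genotype under tamoxifen. Atp1b1 and Slc26a2, both leading genes of cluster 4, had one for tamoxifen in Esr1cKO mice, at -1.34 ± 0.55 and -1.45 ± 0.60. Slc1a3 is also on the astrocyte list.

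Of 20 retinoid and prostaglandin genes 6 were tested, with medians of -0.13, -0.20, -0.32, -0.34 and -0.57. Ptgds was at 24072, 42492 and 86513 CPM under oil and 50284, 23622, 48334, 36938 and 56920 CPM under tamoxifen in wild-type mice. In Esr1cKO mice it was at 41139, 33197, 56321 and 42027 CPM under oil and 14401, 28878, 38844 and 27938 CPM under tamoxifen (log2 change -0.65 ± 0.38, adjusted p = 0.999 by edgeR). The lowest value was from the library with the largest share of its fibroblasts in cluster 1, where Ptgds is low. Of 50 growth factor ligands and modulators 12 were tested, and Edn3 (0.996 ± 0.42) and Mdk (1.18 ± 0.52) had an unadjusted p under 0.05 for tamoxifen in wild-type mice. The medians of these 12 were -0.06, 0.05, -0.42, 0.08 and -0.12. Of 48 other matrix proteins 20 were tested, of 32 collagen processing and turnover genes 8, of 24 complement and innate genes 13, of 24 chemokines and cytokines 3, of 35 surface and growth factor receptors 18 and of 42 mesenchymal transcription factors 14. None of these held a call, and at most 2 genes of each had an unadjusted p under 0.05 in a comparison. Over the 5 comparisons their medians ran from -0.29 to 0.06 for other matrix proteins, -0.39 to 0.18 for collagen processing, -0.28 to 0.33 for complement, -0.02 to 0.22 for chemokines, -0.21 to 0.02 for surface receptors and -0.35 to 0.20 for transcription factors.

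Immediate early genes are induced within minutes of a stimulus, including tissue dissociation. Of 30 such genes 20 were tested. For tamoxifen in Esr1cKO mice 19 of the 20 lay above 0 with a median of 0.52, against 47.9% of all genes. In wild-type mice 4 of 20 did, with a median of -0.13, against 52.9%. For genotype under oil 3 of 20 lay above 0 with a median of -0.51 (53.6% of all genes). For genotype under tamoxifen 16 of 20 did, with a median of 0.21 (47.3%), and for the interaction 18 of 20, with a median of 0.70 (46.1%). The interaction and the comparisons within Esr1cKO mice and under oil share the Esr1cKO oil libraries, and no gene passed. Such genes are induced together, so their signs are not separate results. In Esr1cKO mice the list summed to 17121, 24261, 18866 and 13659 CPM under oil. Under tamoxifen it summed to 47738, 17399, 28397 and 18538 CPM, and the groups overlapped. An unadjusted p under 0.05 was held by Klf4 for tamoxifen in wild-type mice, by Klf4, Nr4a1 and Socs3 (all below 0) for genotype under oil, by Klf6 for genotype under tamoxifen, by Klf6 and Nr4a1 for the interaction and by 4 genes in Esr1cKO mice. Of these, Nr4a1 had 1.08 ± 0.50, Klf6 1.03 ± 0.36, Ier2 0.98 ± 0.44 and Dusp1 0.67 ± 0.27 for tamoxifen in Esr1cKO mice. Fos was at 4017, 4437, 3578 and 2774 CPM under oil and 9667, 2336, 5824 and 3675 CPM under tamoxifen, with overlap (log2 change 0.54 ± 0.35, adjusted p = 0.999 by edgeR). The list summed to 47738 CPM in Esr1cKO tamoxifen replicate 1 and to 37892 CPM in wild-type oil replicate 1, with 25 of 38 and 15 of 27 fibroblasts in cluster 1, where the list summed to 51925 CPM. It was at 26234 CPM in wild-type tamoxifen replicate 2 and 24261 CPM in Esr1cKO oil replicate 2, with 22 of 35 and 26 of 68 in cluster 1, against a mean of 23903 ± 8544 CPM (SD, n = 16). Cytosolic ribosomal protein genes (75 of 118 tested) had medians of 0.07, 0.01, 0.02, 0.11 and 0.04, and mitochondrial genome genes (11 of 34 tested) of -0.04, -0.11, -0.13, -0.05 and -0.22. Marker lists of other cell types were tested in the same fit. Of 16 endothelial genes 6 were tested, with a median of 1.014 for genotype under tamoxifen, where Flt1, Ly6a and Ly6c1 had an unadjusted p under 0.05. The choroid plexus gene Enpp2 had a log2 change of 3.61 for tamoxifen in wild-type mice, where replicate 2 holds the Ttr-rich cell.

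Receptors for hormones were sparse. The list of 22 genes held 20 receptor genes, the oestrogen target gene Greb1 and the transcription factor gene Nkx2-1. Of the 22 genes 21 had a UMI in the fibroblasts and only Nr3c1, the glucocorticoid receptor gene, passed the filter. Nr3c1 had 220 UMIs in 147 cells and was at 227 ± 89.2 CPM (SD, n = 16), with log2 changes under tamoxifen of 0.50 ± 0.46 in wild-type and 0.34 ± 0.40 in Esr1cKO mice. Esr1, the oestrogen receptor gene that the study deletes and that tamoxifen binds through its protein, had 35 UMIs in 34 cells (4.81%). In oligodendrocytes, at a median of 766 UMIs, 2.37% of cells had an Esr1 UMI. As CPM, Esr1 was at 97.2 ± 52.6 in microglia, 55.9 ± 15.6 in neurons, 42.6 ± 23.6 in astrocytes, 37.9 ± 35.4 in ependymal cells, 37.0 ± 29.0 in fibroblasts, 33.8 ± 25.2 in endothelial cells, 29.96 ± 28.5 in mural cells and 28.7 ± 19.1 in oligodendrocytes. Fibroblasts did not differ beyond the spread from any neighbour in this order. Per library, Esr1 had 1, 1 and 0 UMIs in wild-type oil, 4, 2, 8, 4 and 1 in wild-type tamoxifen, 1, 3, 4 and 1 in Esr1cKO oil and 0, 2, 0 and 3 in Esr1cKO tamoxifen fibroblasts. Reads from the end of a transcript do not show whether a floxed exon was deleted, so these counts check neither the genotype nor its effect. Nkx2-1, whose sequences drive Cre, had 3 UMIs in 3 fibroblasts.

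The other receptors can be given as UMIs over all fibroblasts. Thra and Thrb, which encode thyroid hormone receptors, had 116 and 53 UMIs. Nr3c2, the mineralocorticoid receptor gene, had 102, Ghr 87, Igf1r 54 and Insr 36. Rarb, a retinoic acid receptor gene, had 91 UMIs and was at 110 ± 68.5 CPM, against 37.8 ± 15.4 CPM in astrocytes, its next cell type. Lepr, the leptin receptor gene, had 46 UMIs at 43.8 ± 26.6 CPM, against 24.8 ± 18.98 CPM in endothelial cells. Rara had 28 UMIs, Rxra 27, Gper1 16, Esrra 11, Esr2 10, Prlr 7, Pgr 5 and Mc4r 3. Vdr had 0 of 920320 UMIs, which allows up to 3.26 CPM. Greb1, which is not a receptor gene, had 10 UMIs.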

How the data were processed

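For 16 libraries the authors deposited counts of UMIs per gene and barcode, whole numbers without normalization and not pooled. The submitters' processing notes name STAR 2.6, Seurat and mm10, and the counting program and annotation are not given in the sources used here. A barcode was kept if its gene number lay above 200 and below 4000 and mt- genes took less than 15% of its UMIs. The members, gene lists and cell type markers were chosen with earlier results of these data known.

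UMI counts were summed over the fibroblasts of each library (at least 10) and tested with edgeR 4.0.16 (R 4.3.3, TMM, filterByExpr, 4 groups in 1 fit, two-sided, threshold 0.05), with DESeq2 1.42.0 as an alternative. The standard error is the log2 change divided by the root of F. The test was checked on simulated counts with 200 changed genes. Shares were compared by exact permutation (scipy 1.17.1), and doublets called with Scrublet in scanpy 1.11.5. Clusters used log-normalised counts, 10 principal components, 20 neighbours and Leiden at resolution 0.5 (igraph 0.11.9).

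Named genes were the rule genes, 25 leading genes, the most abundant of each list, all hormone receptors, and per comparison the genes past the threshold or else the 5 with the smallest p. A few genes that this rule names are not reported here. Cluster genes, neighbour pairs, promoters and the motif were picked after the values were seen. The study processed 4 mice a day over 4 days, with the groups in parallel. Labels do not give the day, so blocks of 4 successive library numbers stood in for it as an alternative. The first 3 blocks each hold 1 library of every group. Alternatives changed the normalization, filter, libraries, cell filters and marker thresholds. The 16 matrices are distinct, and replicates are separate mice.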

Additional observations from a re-analysis of the deposited data

Results flagged for a closer look

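Among 42 group-wise checks of 14 quantities for a library far from the rest of its group (Dixon's test, groups of 4 and 5, genes of the selection rule not tested), 6 stood out, where chance alone flags about 1 in 20. The Inmt level of Esr1cKO tamoxifen replicate 1 was 1989 CPM, against 231 CPM in the next, and that of wild-type tamoxifen replicate 2 was 1214 CPM, against 415 CPM. In both libraries cluster 1, led by Inmt, held most of the fibroblasts (25 of 38 and 22 of 35). The astrocyte list of wild-type tamoxifen replicate 2 was low, at 2507 CPM against 5187 CPM in the nearest library. The oligodendrocyte list of Esr1cKO oil replicate 1 was high, at 4098 CPM against 1740 CPM. The choroid plexus list of wild-type tamoxifen replicate 2 was at 94143 CPM against 311 CPM, with 3384 Ttr UMIs from 1 cell. The red cell list of Esr1cKO tamoxifen replicate 2 was at 60292 CPM against 654 CPM, with 1478 globin UMIs from 1 cell.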

How the results depend on the processing

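No share difference had an adjusted p under 0.357 in any alternative, but 46 of the 104 tests run could not reach an unadjusted 0.05, so this says nothing about stability. With each library left out in turn, the difference ran from 0.00791 to 0.392 points for tamoxifen in wild-type mice, -0.283 to 0.351 points for tamoxifen in Esr1cKO mice, -0.251 to 0.384 points for genotype under oil and -0.211 to 0.0759 points for genotype under tamoxifen, so the sign of the last 3 rested on single libraries. With cells under 5% mitochondrial UMIs alone, the 4 differences were 0.588, -0.0900, 0.258 and -0.420 points in that order, and the last had the lowest exact permutation p of all tests run (0.111). The tamoxifen difference in Esr1cKO mice was 0.0764 points with cells thinned to 500 UMIs. Without wild-type oil replicate 2 and Esr1cKO tamoxifen replicate 2 it was 0.0774 points, and genotype under tamoxifen 0.0430 points. Genotype under oil was -0.0265 points without wild-type oil replicate 3 and Esr1cKO tamoxifen replicate 3, an alternative chosen after seeing the data.

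Gene counts stayed at 0 in 62 of 69 alternatives other than leaving out single libraries. Without a filter on low counts, 17940 genes were tested and 4, 8, 3, 3 and 11 genes were called in wild-type tamoxifen, Esr1cKO tamoxifen, the interaction, genotype under oil and genotype under tamoxifen, among them Ttr, Enpp2 and globin genes. DESeq2 called 1 gene for genotype under tamoxifen. For tamoxifen in Esr1cKO mice, 4 globin genes were called without wild-type oil replicate 3 and Esr1cKO tamoxifen replicate 3, and leaving out each library gave 0 to 3 calls, the 3 (globin genes) without Esr1cKO tamoxifen replicate 3. For the other 4 comparisons it gave 0. For genotype under tamoxifen, Hbb-bs and Hba-a1 changed sign to -1.57 and -1.10 without wild-type oil replicate 2 and Esr1cKO tamoxifen replicate 2, and to -2.82 and -1.86 with no exclusion marker allowed, and Hba-a1 to -1.62 without cluster 6. With each library left out in turn they ran from -1.56 to 4.57 and from -1.10 to 3.91, lowest without Esr1cKO tamoxifen replicate 2, which holds the cell with 1478 globin UMIs. The labels do not give the processing day, so blocks of 4 successive library numbers stood in for a pairing by day. With these blocks 0 genes were called in each comparison, and 43, 44, 28, 49 and 37 had an unadjusted p under 0.05. Hbb-bs and Hba-a1 for genotype under tamoxifen were then 0.99 and 1.58. Beyond these blocks, no paired analysis was possible because the labels do not tie replicates to days.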
